A study of Homo sapiens with 12 samples.

Results

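Neutrophils carry their antimicrobial and matrix-degrading proteins in granules that form at successive stages of maturation, and the genes described here encode proteins of the secondary (specific) and tertiary (gelatinase) granules. The genes were chosen by name, as LTF, CAMP, LCN2, CEACAM8, MMP8, MMP9, CRISP3, OLFM4, PGLYRP1 and ARG1, and all 10 were present among the 59251 genes of the deposited count table. Their RNA was measured by RNA-Seq in HL60 cells, a single human myeloid leukemia cell line that grows as immature, promyelocyte-like cells and does not carry PML-RARA. The 4 groups were non-treated cells, cells given 1 µM all-trans retinoic acid (ATRA), cells given 1 µM palbociclib, an inhibitor of CDK4 and CDK6 (CDK4/6i), and cells given both drugs at these doses (CDK4/6i+ATRA), with 48 h of drug treatment. Each group held 3 libraries, labelled as biological replicates, with 12230923 to 18679544 counts per library. HL60 cells are a bulk culture here, so fewer cells making an RNA and less of that RNA per cell cannot be told apart.

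In bone marrow, azurophil granules form in promyelocytes, specific granules in myelocytes and metamyelocytes, and gelatinase granules in band cells, and each set of genes is switched on at its own stage under factors such as C/EBPε. Lactoferrin (LTF) binds iron, cathelicidin (CAMP) is the precursor of the peptide LL-37, lipocalin 2 (LCN2) binds bacterial siderophores, and PGLYRP1 binds peptidoglycan. MMP8 (neutrophil collagenase) cuts fibrillar collagen and MMP9 (gelatinase B) cuts denatured collagen. CEACAM8 (CD66b) is an adhesion protein of the granule membrane, OLFM4 marks a subset of neutrophils, CRISP3 is a cysteine-rich secretory protein, and ARG1 breaks down arginine. ATRA activates retinoic acid receptors and drives HL60 cells toward granulocytes, and HL60 cells have long been known to form few secondary granules when they mature.

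RefSeq promoter windows (GRCh38.p14, 250 bases before to 50 bases after the start site) were matched for 8 members, and those of MMP9 and PGLYRP1 were not. The windows of MMP8 and OLFM4 are shown because these genes went from no counts to clear counts, and those of LCN2 and CRISP3 because these genes stayed without expression. They lie at chr11:102724905-102725204 (minus strand) for MMP8, chr13:53028563-53028862 (plus strand) for OLFM4, chr9:128149203-128149502 (plus strand) for LCN2 and chr6:49744339-49744638 (minus strand) for CRISP3, each printed 5′ to 3′ on the strand of its gene. Capitals mark matches, on either strand, to TTGCNNAA (C/EBP), AGGAAG (ETS), AGGTCA (a half-site of the retinoic acid receptor) or TGANTCA (AP-1).
MMP8: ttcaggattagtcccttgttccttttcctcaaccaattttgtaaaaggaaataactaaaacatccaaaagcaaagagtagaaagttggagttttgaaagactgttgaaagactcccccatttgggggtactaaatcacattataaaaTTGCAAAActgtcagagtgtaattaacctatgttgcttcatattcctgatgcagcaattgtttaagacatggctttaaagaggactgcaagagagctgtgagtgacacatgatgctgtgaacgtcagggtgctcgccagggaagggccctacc
OLFM4: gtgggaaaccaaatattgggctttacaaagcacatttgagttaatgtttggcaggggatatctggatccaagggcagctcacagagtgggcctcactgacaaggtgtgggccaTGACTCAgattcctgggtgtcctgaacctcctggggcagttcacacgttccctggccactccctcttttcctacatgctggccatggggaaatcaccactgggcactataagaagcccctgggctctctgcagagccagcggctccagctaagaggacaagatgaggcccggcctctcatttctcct
LCN2: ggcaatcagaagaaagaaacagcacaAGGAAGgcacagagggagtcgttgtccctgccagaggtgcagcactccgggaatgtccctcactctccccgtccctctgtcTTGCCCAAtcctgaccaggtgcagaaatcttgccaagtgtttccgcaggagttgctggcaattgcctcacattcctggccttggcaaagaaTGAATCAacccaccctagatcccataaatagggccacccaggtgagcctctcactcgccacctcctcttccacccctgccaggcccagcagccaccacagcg
CRISP3: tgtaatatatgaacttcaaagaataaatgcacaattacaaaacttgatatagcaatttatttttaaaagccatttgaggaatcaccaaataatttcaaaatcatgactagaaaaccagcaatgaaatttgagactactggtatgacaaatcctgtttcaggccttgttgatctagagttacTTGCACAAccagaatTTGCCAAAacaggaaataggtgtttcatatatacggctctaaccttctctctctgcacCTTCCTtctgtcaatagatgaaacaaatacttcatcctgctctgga

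The MMP8 window held 1 C/EBP match, TTGCAAAA, with its first base at position -103 from the start site. OLFM4 held no C/EBP or ETS match and 1 AP-1 match, TGACTCA, at position -137. LCN2, whose RNA was all but absent, held a C/EBP match at position -143, an ETS match at -224 and an AP-1 match at -52, and CRISP3 held C/EBP matches at positions -69 and -54 and an ETS match, CTTCCT on the strand shown, at position 5. The capitals do not overlap one another in these 4 windows. Of 35116 RefSeq windows of this length, 10.5% held the C/EBP letters, 33.6% the ETS letters, 13.8% the receptor half-site and 7.71% the AP-1 letters, so such matches were common, and the receptor half-site was absent from the windows of the 8 matched members. These letters describe the sequence only.

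Of the 10 genes, 5 were not expressed at a countable level in any condition. A group was taken to be at the detection floor when each of its libraries held 3 counts or fewer. This is 0.161 to 0.245 CPM (counts per 1000000 counts of the library) at these depths on unscaled library totals. Levels given in CPM below use scaled library sizes (TMM), on which the floor differs slightly. LTF, LCN2, CEACAM8, CRISP3 and ARG1 were at the floor in all 4 groups and together held 20 counts over the 12 libraries. By group, 3 members were above the floor in non-treated cells, 5 in ATRA, 3 in CDK4/6i and 4 in CDK4/6i+ATRA.

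LTF, the iron-binding protein that defines specific granules (22 exon entries at chr3:46435645-46485234, minus strand, hg38), held no count in the non-treated, CDK4/6i and CDK4/6i+ATRA libraries and 1, 0 and 3 counts in the ATRA libraries. LCN2 (chr9:128149453-128153453, plus strand) held 1 count in total, in ATRA replicate 1. CRISP3 (chr6:49727376-49744388, minus strand) had 0 counts in all 12 libraries. These genes were thus at or below the floor whether or not either drug was present, and at this depth a level under about 3 counts per library could not have been seen.

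CEACAM8 (chr19:42580243-42594924, minus strand) held 1, 0 and 0 counts in non-treated cells, 1, 1 and 0 in ATRA, 1, 0 and 0 in CDK4/6i, and 0, 0 and 3 in CDK4/6i+ATRA. ARG1 (chr6:131573226-131584329, plus strand) held 1, 3 and 0 counts in non-treated cells, 0, 0 and 1 in ATRA, 1, 0 and 0 in CDK4/6i, and 0, 1 and 1 in CDK4/6i+ATRA. Counts of every group overlapped those of every other for both genes. No exon of the 10 members was also listed on an alternate or patch contig, where reads that align in more than 1 place can be lost.

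**Figure D1:**
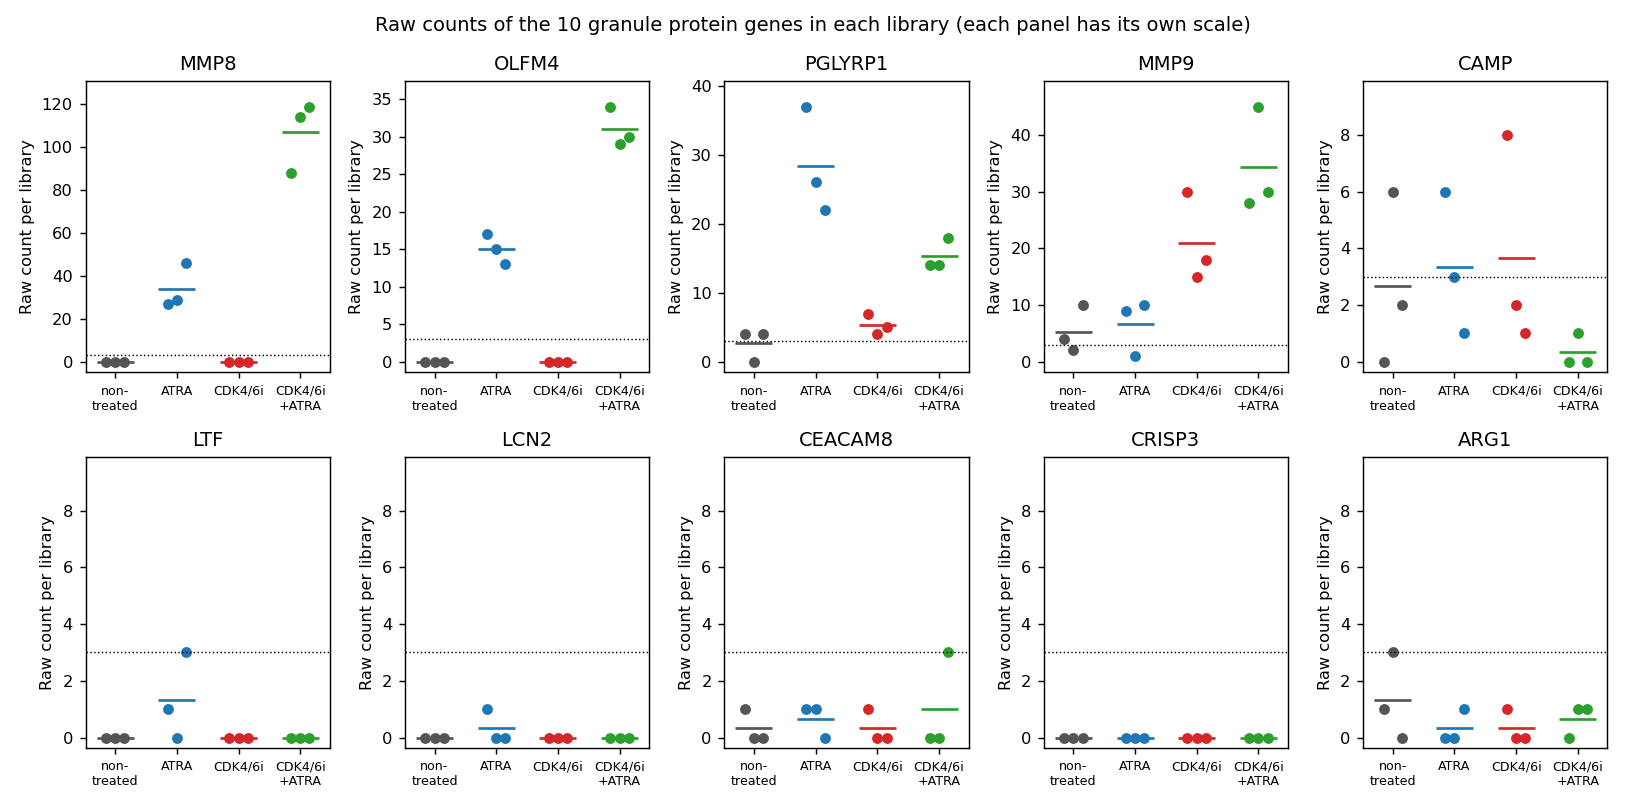
Raw counts of each member (vertical axis, own scale per panel) in the 3 libraries of each group (points), with the group mean (bar) and the floor of 3 counts (dotted line). MMP8 and OLFM4 lie at 0 without ATRA and at 13 counts or more with it, PGLYRP1 is high in both ATRA-containing groups, MMP9 is high in both CDK4/6i-containing groups, and the lower 5 panels stay at or under the floor.

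CAMP, the only human cathelicidin (chr3:48223495-48225485, plus strand), was detected at a trace. It held 0, 6 and 2 counts in non-treated cells, 6, 3 and 1 in ATRA, 8, 2 and 1 in CDK4/6i, and 0, 1 and 0 in CDK4/6i+ATRA. The first 3 groups overlapped fully, and the CDK4/6i+ATRA group was at the floor. CAMP did not pass the expression filter, and when the filter was omitted its log2 fold change of CDK4/6i+ATRA against non-treated cells was -2.27 (edgeR quasi-likelihood test, Benjamini-Hochberg adjusted p = 0.205).

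The remaining 4 members, MMP8, OLFM4, PGLYRP1 and MMP9, passed the filter among 13318 genes tested. Each passed it through treated libraries, since no non-treated library reached the filter's 0.632 CPM for any of them, so these genes could hardly be other than higher in some comparison with non-treated cells, and their number is a description. MMP8, OLFM4 and PGLYRP1 passed through the ATRA and CDK4/6i+ATRA libraries and MMP9 through the CDK4/6i and CDK4/6i+ATRA libraries.

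MMP8, the collagenase of specific granules (chr11:102711796-102724954, minus strand), was the most abundant member in the combination. It had 0 counts in the 3 non-treated and the 3 CDK4/6i libraries, 27, 29 and 46 counts in ATRA, and 88, 114 and 119 in CDK4/6i+ATRA. The groups did not overlap, with both ATRA-free groups at 0 and every combination library above every ATRA library. The level was 1.96 ± 0.498 CPM in ATRA and 9.34 ± 1.13 CPM in CDK4/6i+ATRA (mean ± SD, n = 3).

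Against the floor of 3 counts, MMP8 was at least 10.97-fold higher in ATRA than in non-treated cells and at least 52.2-fold higher in CDK4/6i+ATRA (edgeR adjusted p = 2.2e-12 and 5.0e-21). It was at least 54.5-fold higher in the combination than in CDK4/6i alone. Relative to ATRA alone, the combination raised MMP8 by 2.24 ± 0.226 on the log2 scale (SE), a ratio of 4.76 between mean CPM values (edgeR adjusted p = 4.5e-12). Even so, 41.0% of the tested genes had a lower mean CPM than MMP8 in the combination. The neighbouring metalloproteinase genes MMP27, MMP10, MMP1 and MMP20, which lie within 100000 bases on the same strand, held at most 10 counts summed over any group.

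OLFM4, a secreted glycoprotein of specific granules (chr13:53028813-53052057, plus strand), had the same layout at a lower level. No count was seen in the non-treated and CDK4/6i libraries, whereas the ATRA libraries held 17, 15 and 13 counts and the CDK4/6i+ATRA libraries 34, 29 and 30. Again every combination library exceeded every ATRA library. Its level was 0.879 ± 0.165 CPM in ATRA and 2.72 ± 0.341 CPM in the combination (mean ± SD, n = 3).

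The floor gave an OLFM4 increase of at least 4.91-fold in ATRA and at least 15.2-fold in CDK4/6i+ATRA over non-treated cells (edgeR adjusted p = 6.5e-08 and 5.7e-13), and of at least 15.9-fold in the combination over CDK4/6i. The combination exceeded ATRA alone by 1.63 ± 0.350 on the log2 scale (SE), a ratio of 3.10 (edgeR adjusted p = 6.7e-05). For OLFM4 and MMP8 the effect of CDK4/6i without ATRA could not be measured, because non-treated and CDK4/6i cells were both at 0 counts, and the interaction of the drugs could not be estimated for the same reason.

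PGLYRP1, a peptidoglycan-binding protein (chr19:46019153-46023053, minus strand), rose with ATRA whether or not CDK4/6i was present. It held 4, 0 and 4 counts in non-treated cells, 37, 26 and 22 in ATRA, 7, 4 and 5 in CDK4/6i, and 14, 14 and 18 in CDK4/6i+ATRA. Both ATRA-containing groups lay above both others without overlap. In CPM, which accounts for depth, the ATRA and CDK4/6i+ATRA libraries overlapped, at 1.67 ± 0.548 and 1.34 ± 0.129 (mean ± SD, n = 3).

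The log2 fold change of PGLYRP1 over non-treated cells was 3.32 ± 0.503 (SE) in ATRA and 3.02 ± 0.547 in CDK4/6i+ATRA (edgeR adjusted p = 9.6e-08 and 2.5e-06). Over CDK4/6i alone the combination was higher by 2.12 ± 0.479 (edgeR adjusted p = 9.7e-05). Between the combination and ATRA alone the difference was -0.30, with a 95% interval of -1.04 to 0.43 (edgeR adjusted p = 0.466), so a change of either sign within these bounds was not detectable. CDK4/6i alone gave 0.90 with an interval of -0.47 to 2.27 (edgeR adjusted p = 0.269). CCDC61 lies 537 bases from PGLYRP1 on the opposite strand, and its log2 fold change was -1.43 in the combination.

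MMP9, the gelatinase that gives tertiary granules their name (chr20:46008908-46016561, plus strand), rose with CDK4/6i, and its change in ATRA alone did not pass the test. It held 4, 2 and 10 counts in non-treated cells, 9, 1 and 10 in ATRA, 30, 15 and 18 in CDK4/6i, and 28, 45 and 30 in CDK4/6i+ATRA. The non-treated and ATRA libraries overlapped and lay below all libraries with CDK4/6i. In CPM the 4 groups were at 0.309 ± 0.227, 0.388 ± 0.286, 1.17 ± 0.336 and 3.02 ± 0.860 (mean ± SD, n = 3), and the CDK4/6i and combination libraries no longer overlapped.

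MMP9 was higher than in non-treated cells by 1.88 ± 0.487 (log2, SE) in CDK4/6i and by 3.22 ± 0.445 in CDK4/6i+ATRA (edgeR adjusted p = 8.7e-04 and 7.3e-09). The difference between ATRA and non-treated cells was 0.29 with a 95% interval of -0.92 to 1.49 (edgeR adjusted p = 0.687). The combination exceeded CDK4/6i by 1.34 ± 0.354 and ATRA by 2.93 ± 0.427 (edgeR adjusted p = 6.9e-04 and 3.8e-08). Non-treated replicate 3 held the most counts of its group, and without it the MMP9 changes became 1.05 in ATRA, 2.64 in CDK4/6i and 3.98 in CDK4/6i+ATRA (edgeR adjusted p = 0.221, 2.8e-04 and 1.1e-08). SLC12A5-AS1, an antisense gene that overlaps MMP9 exons by 428 bases, was listed with 0 counts in all libraries, and whether the counting used strand was not stated.

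**Figure D2:**
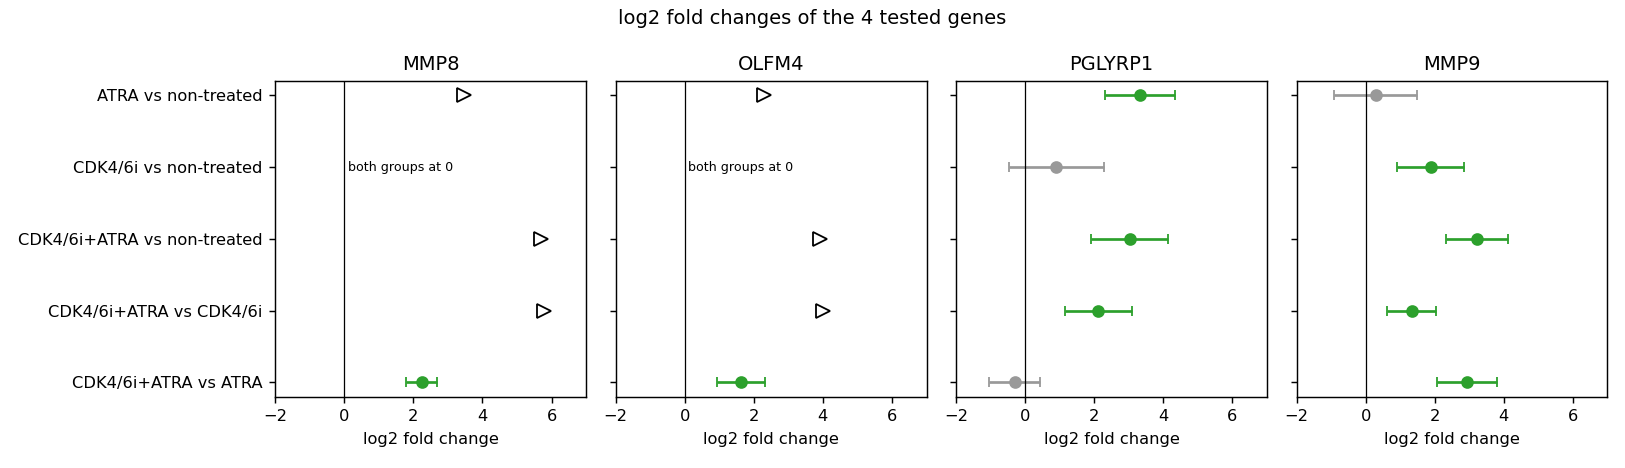
log2 fold changes (horizontal axis) of the 4 tested members in 5 comparisons (vertical axis). Circles are fitted values with 95% intervals, green where the adjusted p was under 0.05 and grey otherwise, and open triangles are lower bounds against a group at 0 counts; MMP8 and OLFM4 rise further in the combination than in ATRA, PGLYRP1 does not pass that test, and MMP9 passes the test in CDK4/6i but not in ATRA.

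Of the 4 tested members, 3 rose in ATRA (MMP8, OLFM4 and PGLYRP1), where 32.1% of all tested genes rose. In CDK4/6i 1 of the 4 rose (MMP9), where 28.3% of tested genes did. In CDK4/6i+ATRA all 4 rose, where 41.0% of tested genes did. The other 6 members were not tested, and because the 4 entered the test through treated libraries, nothing is read from these counts.

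The combination exceeded CDK4/6i for all 4 tested members, where 39.1% of tested genes were higher and 39.5% lower, and exceeded ATRA for 3 of the 4 (MMP8, OLFM4 and MMP9), where 36.9% were higher and 32.8% lower, with the same limit on these counts. Among all called genes of these comparisons 49.8% and 53.0% were higher, and 36.7% and 31.6% when libraries were scaled by their total alone, while the members called stayed at 4 and 3. The interaction, which asks whether the combination departs from the product of the single-drug fold changes, was called for 51.4% of tested genes and could be estimated for MMP9 and PGLYRP1 alone among the members. It was called for 0 of these 2 in edgeR, with 0 also at an unadjusted p under 0.05 and 0 in DESeq2. Its value was 1.05 for MMP9 and -1.20 for PGLYRP1 on the log2 scale (edgeR adjusted p = 0.227 and 0.198), with wide 95% intervals of -0.39 to 2.49 and -2.76 to 0.35. Without non-treated replicate 3 the value for MMP9 became 0.29 (edgeR adjusted p = 0.833).

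Levels were compared between members per kilobase of gene length. In CDK4/6i+ATRA, MMP8 stood at 2.91 ± 0.350 CPM per kb, PGLYRP1 at 1.89 ± 0.182, MMP9 at 1.29 ± 0.368 and OLFM4 at 0.958 ± 0.120 (mean ± SD, n = 3). The libraries of MMP9 and OLFM4 overlapped on this scale, and those of the other neighbours in the order did not. In ATRA the order was PGLYRP1 at 2.36 ± 0.775, MMP8 at 0.611 ± 0.155, OLFM4 at 0.309 ± 0.0579 and MMP9 at 0.166 ± 0.122 CPM per kb, with no overlap between neighbours. PGLYRP1 was thus the first of the 4 in ATRA and MMP8 the first in the combination. Over all 10 members the summed level ran from 0.600 to 0.900 CPM in non-treated cells, 4.37 to 6.09 in ATRA, 1.28 to 2.43 in CDK4/6i and 15.0 to 18.2 in CDK4/6i+ATRA, with no overlap between groups. MMP8 alone stood at 9.34 CPM in the combination, where the mean of the sum was 16.6. The 4 tested members, which passed the filter through treated libraries, carried most of the sum in each group, so its order restates theirs.

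**Figure D3:**
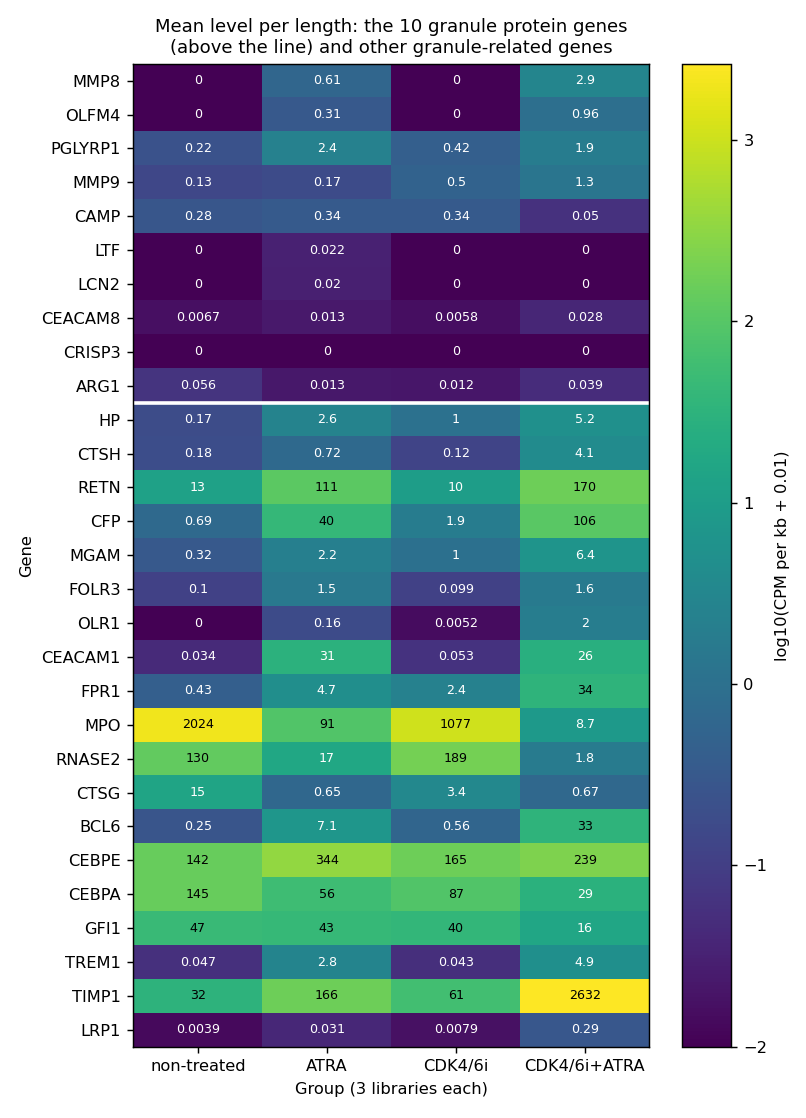
Mean CPM per kb of the 10 members (above the white line) and of named genes of related lists in each group (columns, 3 libraries each), with the value printed in each cell and colour on a log10 scale. The members reach at most 2.9 CPM per kb, whereas MPO stands at 2024 in non-treated cells and TIMP1 at 2632 in CDK4/6i+ATRA.

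Other proteins of the same compartments were followed in gene lists, whose counts are set beside those of all tested genes. Some listed genes, such as HP, CTSH, CEACAM1 and TREM1, had a non-treated mean under the filter's 0.632 CPM. Such genes needed treated libraries to pass the filter and could hardly be other than higher in some comparison. The counts and medians of these lists, and of the cell type markers, are therefore a description. Of all tested genes 32.1% rose and 35.5% fell in ATRA, 28.3% and 27.9% in CDK4/6i, and 41.0% and 40.7% in CDK4/6i+ATRA, with medians (log2) of -0.028, 0.020 and 0.018. Of 17 further specific granule genes, 13 were tested, and in CDK4/6i+ATRA 10 rose and 3 fell relative to non-treated cells, the median of the 13 being 1.35 (log2). In ATRA 8 rose and 5 fell, and in CDK4/6i 6 rose and 1 fell. The largest changes in the combination were those of HP (haptoglobin, which binds free hemoglobin), CTSH (the protease cathepsin H) and RETN (resistin).

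HP went from 0.265 ± 0.231 CPM in non-treated cells to 4.04 ± 0.739 in ATRA, 1.59 ± 0.492 in CDK4/6i and 7.94 ± 0.973 in the combination. RETN went from 7.57 ± 1.09 CPM to 66.7 ± 1.00 in ATRA and 102 ± 10.8 in the combination, and was 6.30 ± 0.614 in CDK4/6i. CTSH reached 12.1 ± 1.51 CPM in the combination from 0.522 ± 0.199 in non-treated cells. The log2 fold changes of HP, CTSH and RETN in the combination were 4.90, 4.53 and 3.76 (edgeR adjusted p = 3.2e-18, 6.7e-21 and 5.7e-39). Genes assigned to the same granules as LTF and LCN2 were thus clearly counted in these libraries.

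Of 12 further gelatinase granule genes, 10 were tested, and 9 rose and 1 fell in CDK4/6i+ATRA, with a median log2 fold change of 2.83. In ATRA 9 rose, with 1 not called, and in CDK4/6i 8 rose, with 2 not called, where 32.1% and 28.3% of all tested genes rose. CFP (properdin, which stabilises the alternative complement convertase) led with 1.83 ± 0.851 CPM in non-treated cells, 107 ± 2.62 in ATRA, 4.95 ± 0.639 in CDK4/6i and 282 ± 15.2 in the combination. MGAM (maltase-glucoamylase) and FOLR3 (a secreted folate receptor) followed, with log2 fold changes of 4.30 and 3.89 in the combination (edgeR adjusted p = 3.0e-42 and 9.7e-08). MGAM is also listed on other contigs, which leaves its count uncertain.

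All 18 granule membrane genes were tested, and 14 rose and 4 fell in the combination, with a median of 2.02 (13 and 4 when libraries were scaled by their total alone). In ATRA 13 rose and 3 fell, and in CDK4/6i 12 rose and 1 fell, where 32.1% and 28.3% of all tested genes rose and 35.5% and 27.9% fell. CEACAM1, a relative of CEACAM8 that lies 51762 bases from it, went from 0.120 ± 0.208 CPM to 110.1 ± 3.77 in ATRA and 93.3 ± 3.26 in the combination and was 0.191 ± 0.0398 in CDK4/6i. CEACAM8 itself stayed at the floor beside it. FPR1 (the formyl peptide receptor) rose by 6.28 on the log2 scale in the combination, and OLR1 (an oxidised lipoprotein receptor), with no counts in non-treated cells, was at least 36.4-fold higher (edgeR adjusted p = 2.7e-39 and 2.2e-18).

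**Figure D4:**
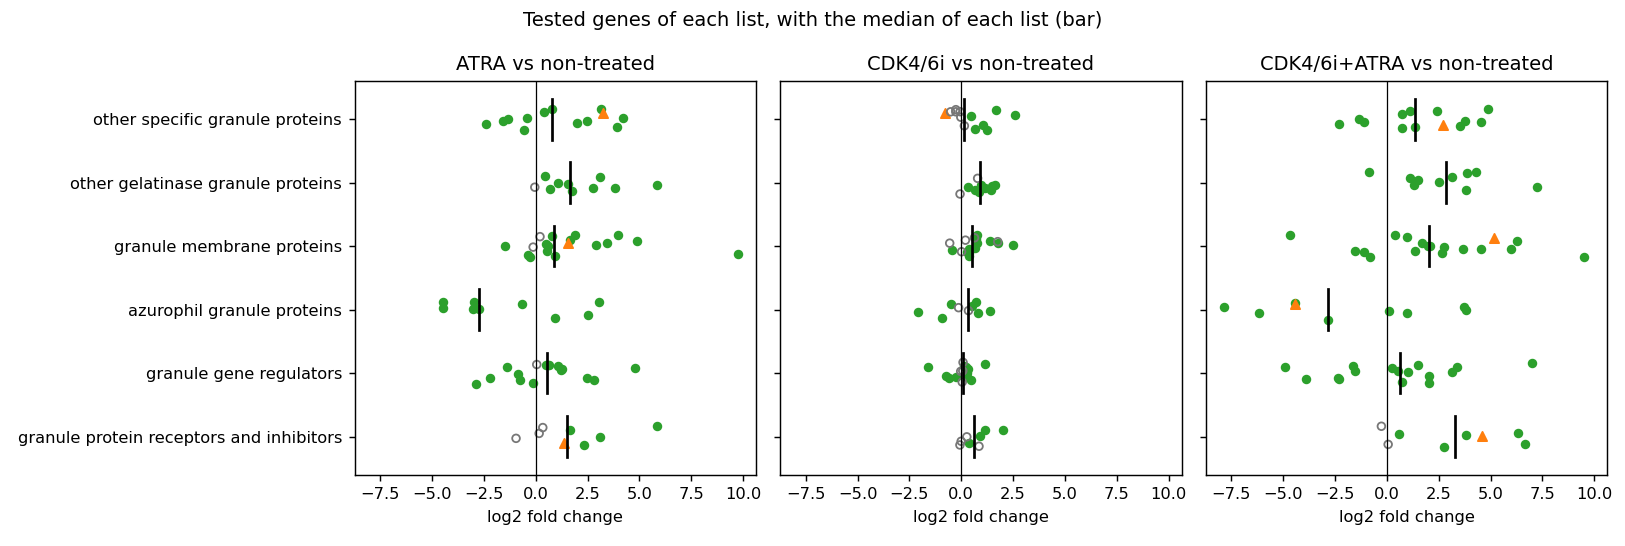
log2 fold changes (horizontal axis) of the tested genes of 6 related lists (vertical axis) in ATRA, CDK4/6i and CDK4/6i+ATRA against non-treated cells. Filled points passed the adjusted p of 0.05, open points did not, triangles are bounds against a group at the floor and bars are medians; in the combination the medians of the specific, gelatinase and membrane lists are 1.35, 2.83 and 2.02 and that of the azurophil list is -2.83.

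The azurophil granule genes, which precede the members in maturation, went in both directions. Of 16 genes 9 were tested, and 4 rose and 5 fell in the combination (3 and 6 when libraries were scaled by their total alone), where 41.0% of all tested genes rose and 40.7% fell, and the median of the 9 was -2.83. In ATRA 3 rose and 6 fell, and in CDK4/6i 4 rose and 3 fell. The summed level of the 16 genes was 9843 ± 228 CPM in non-treated cells, 5150 ± 96.4 in ATRA, 8857 ± 142 in CDK4/6i and 8325 ± 413 in the combination (mean ± SD, n = 3). MPO (myeloperoxidase) went from 6510 ± 167 CPM in non-treated cells to 293 ± 27.4 in ATRA, 3465 ± 66.3 in CDK4/6i and 27.9 ± 5.15 in the combination. MPO made up most of the sum in non-treated cells, and CTSD, at 4458 ± 266 CPM, made up most of it in the combination. RNASE2, a ribonuclease, fell by 6.18 and CTSG (cathepsin G) fell by 4.42 on the log2 scale in the combination (edgeR adjusted p = 1.4e-42 and 5.6e-22). RNASE3, a close paralogue of RNASE2 whose counts are therefore uncertain, was at the floor in the combination and at least 21.5-fold lower than in non-treated cells. Among those that rose, CTSD (the protease cathepsin D) went from 313 ± 0.846 CPM in non-treated cells to 4458 ± 266 in the combination and SERPINB1 (an inhibitor of neutrophil elastase) from 56.6 ± 4.26 to 753 ± 34.0, with log2 fold changes of 3.83 and 3.74 (edgeR adjusted p = 7.0e-49 and 1.4e-49).

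ELANE, PRTN3 and AZU1, which are among the serine protease family genes of azurophil granules, were listed with 0 counts in all 12 libraries. All 3 are also listed on other contigs, as are the defensin genes DEFA1, DEFA1B, DEFA3 and DEFA4, and these 7 genes of the list were not tested. Genes listed on other contigs too were without counts more often (65.9% of 4379) than genes on a primary chromosome alone (51.0% of 54097), and no level is read from these zeros.

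Regulators of granule genes were followed in a list of 17, of which IRF8 was at the floor in all 4 groups. CEBPE, the C/EBP factor required for specific granules, stood at 169 ± 4.80 CPM in non-treated cells, 409 ± 12.9 in ATRA, 196 ± 5.17 in CDK4/6i and 284 ± 4.26 in the combination. Its log2 fold change was 1.27 in ATRA and 0.75 in the combination, and the combination was lower than ATRA by 0.53 (log2 fold change -0.53, edgeR adjusted p = 8.2e-18). MMP8, OLFM4 and MMP9 were higher in the combination than in ATRA, so CEBPE and these members differed in order between those groups. PGLYRP1, with a log2 fold change of -0.30 there, had the sign of CEBPE but was not called.

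CEBPA, which acts earlier in the lineage, fell by 2.30 in the combination, and GFI1, a repressor that serves granulocyte development, fell by 1.56 (edgeR adjusted p = 8.4e-43 and 1.3e-35). The largest changes among the 16 tested regulators, of which 10 rose and 6 fell in the combination (9 and 6 when libraries were scaled by their total alone), were those of BCL6, MYB and GATA2. BCL6, a transcriptional repressor, rose by 7.02, while MYB fell by 4.92 and GATA2 fell by 3.91 on the log2 scale, both factors of immature cells (edgeR adjusted p = 2.2e-45, 2.0e-50 and 1.1e-46). In ATRA 9 regulators rose and 6 fell, and in CDK4/6i 8 rose and 4 fell. All tested genes divided into 41.0% higher and 40.7% lower in the combination, 32.1% and 35.5% in ATRA, and 28.3% and 27.9% in CDK4/6i, and the medians of the 16 regulators were 0.65, 0.55 and 0.10 on the log2 scale.

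Receptors and inhibitors of the granule proteins were tested for 8 of 12 genes, of which 6 rose in the combination, 5 in ATRA and 4 in CDK4/6i, with the others not called. The shares of all tested genes that rose were 41.0%, 32.1% and 28.3%, and the medians of the 8 fitted values were 3.28, 2.01 and 0.62 (log2). With folds against a group at the floor taken at their bounds, these medians were 3.28, 1.52 and 0.32. TIMP1, the tissue inhibitor that binds MMP8 and MMP9, went from 25.0 ± 1.72 CPM in non-treated cells to 127 ± 12.8 in ATRA, 46.9 ± 0.863 in CDK4/6i and 2024 ± 60.2 in the combination. TREM1, a receptor for which PGLYRP1 is a ligand, went from 0.262 ± 0.152 CPM to 15.3 ± 1.79 in ATRA, 0.238 ± 0.206 in CDK4/6i and 27.2 ± 3.02 in the combination. LRP1, an endocytic receptor that clears proteases, was at the floor in non-treated cells and at least 23.8-fold higher in the combination. Per kilobase TIMP1 RNA stood at 2632 CPM in the combination beside 2.91 for MMP8 and 1.29 for MMP9.

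The genes whose levels followed each tested member most closely over the 12 libraries were found by Pearson's r of log2(CPM + 0.5), as a description of libraries that share groups and depth. MMP8 was closest to PGGT1B, MYL6 and TNFRSF1A (r of 0.998, 0.997 and 0.997). OLFM4 was closest to PLXNA1, PHACTR2 and XIAP (0.998, 0.998 and 0.997). PGLYRP1 was closest to TUBA1A, IFI16 and MMP25 (0.972, 0.970 and 0.969), of which MMP25 is itself a protease of the gelatinase granule membrane. MMP9 was closest to RPL10AP6, RPL10P16 and ZNF790 (0.962, 0.954 and 0.950). RPL10AP6 and RPL10P16 are named as ribosomal protein pseudogenes, which are near-identical copies of other genes, so their counts are uncertain.

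Some lists of cell type markers rose where the members rose and others fell, and their part in these results was not tested. The summed level of 12 mature neutrophil markers was 134 to 147 CPM in non-treated cells, 2321 to 2459 in ATRA, 321 to 337 in CDK4/6i and 6917 to 7484 in CDK4/6i+ATRA, with MME, ALPL and VNN2 at the floor throughout. In both ATRA-containing groups most of this sum was S100A8 and S100A9, at 479 and 1725 CPM in ATRA and 1843 and 5064 in the combination. Of 8 markers tested, 8 rose in ATRA, 6 in CDK4/6i and 7 in the combination against non-treated cells, with the others not called, where 32.1%, 28.3% and 41.0% of all tested genes rose. When libraries were scaled by their total alone, 6 rose and 1 fell in the combination. The combination was higher than ATRA for 5 of the 8 and lower for 3, where 36.9% and 32.8% of all tested genes were.

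For 8 granulocytic precursor markers the sum was 6807 to 7157, 498 to 554, 3761 to 3892 and 197 to 216 CPM in the same order of groups, with ELANE, PRTN3 and AZU1 at 0, and MPO made up most of it in the first 3 groups. Of 5 tested, 4 fell in ATRA and 4 in the combination with 1 not called in each, and in CDK4/6i 1 rose and 3 fell, where 35.5%, 40.7% and 27.9% of all tested genes fell. The 1 not called in the combination was called lower when libraries were scaled by their total alone and higher with DESeq2 size factors. The combination was higher than ATRA for 1 of the 5 and lower for 3 (0 and 3 when libraries were scaled by their total alone), where 36.9% and 32.8% of all tested genes were.

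For 12 monocyte and macrophage markers the sum was 9.83 to 11.1, 56.7 to 60.7, 13.0 to 14.2 and 174 to 184 CPM, with CD163, MRC1, C1QB and VCAN at the floor throughout and MERTK at 132 CPM in the combination. Of 5 tested, 4 rose and 1 fell both in ATRA and in the combination, and 1 rose in CDK4/6i with 4 not called, where 32.1%, 41.0% and 28.3% of all tested genes rose. For 12 eosinophil, basophil and mast cell markers the sum was 6211 to 6464, 586 to 651, 8209 to 8439 and 403 to 468 CPM, with TPSB2 at the floor throughout and PRG2 at 5851 CPM in non-treated cells and 64.6 in the combination. Of 8 tested, 7 fell in ATRA and 8 in the combination, and in CDK4/6i 4 rose and 1 fell (5 and 1 with DESeq2 size factors), where 35.5%, 40.7% and 27.9% of all tested genes fell and 28.3% rose in CDK4/6i. Erythroid markers summed to 2.88 to 10.2 CPM and lymphoid markers to 18.8 to 33.1 CPM over all libraries.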

How the data were processed

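HL60 RNA was sequenced from NEBNext Ultra II Directional libraries of 4 groups of 3. The submitters' processing notes name Trimmomatic 0.33, STAR 2.7.11a and hg38, and the study's methods name NCBI RefSeq and RSEM. The authors deposited raw counts per gene, whole numbers without normalization, in a table laid out as featureCounts writes it. Reads that align in more than 1 place, and the strand setting, could change counts of paralogues and overlapping genes, and neither setting is given in the sources used here. Groups and replicates were taken from the sample titles.

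The members and gene lists were chosen with earlier results of these data known. Counts were filtered with filterByExpr over the 4 groups, leaving 13318 of 59251 genes, and scaled by TMM in edgeR 4.0.16 (R 4.3.3). One quasi-likelihood model of the 12 libraries (8 residual degrees of freedom) was used for 5 comparisons and for the drug interaction, p-values were adjusted over all 13318 genes by Benjamini-Hochberg, and a gene was called at an adjusted p under 0.05. The SE is the absolute log2 fold change divided by the square root of F, and intervals are 95%. The common biological coefficient of variation was 3.70%. CPM uses TMM-scaled library sizes, and CPM per kb divides it by the table's gene length. The expression filter and the stated range of the floor use unscaled library totals. A fold against a group at the floor sets that group to 3 counts in each library.

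All 10 members were named. Of each of the 6 lists of granule proteins, regulators and receptors, the 3 genes with the largest change in CDK4/6i+ATRA among those called were named, with CEBPE, CEBPA, GFI1, MPO, ELANE, PRTN3, AZU1 and CTSG, and for each tested member the 3 genes of at least 1 mean CPM with the highest correlation. Other genes named overlap or neighbour a member, or (CTSD, SERPINB1, S100A8, S100A9, MERTK and PRG2) carry a sum or rose in a list, and were chosen after their values were seen. Replicates of a group differed by more than counting noise (chi-square per degree of freedom 1.81 to 6.22). Titles call them biological replicates without naming separate cultures, and the paper's legend for its gene set enrichment speaks of 3 independent experiments. The p-values rest on the spread between these libraries. The procedure was tested on simulated data. DESeq2 1.42.0, other scalings and filters, smaller fits, a replicate block and leaving out each library were tried. Figures were drawn with matplotlib 3.10.9.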

Additional observations from a re-analysis of the deposited data

How the results depend on the processing

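The number of members called in each comparison (3 in ATRA, 1 in CDK4/6i and 4 in CDK4/6i+ATRA against non-treated cells, 4 against CDK4/6i and 3 against ATRA) was the same with DESeq2, with DESeq2 size factors, with library size alone, without the filter, with only the compared groups in the fit and with each of the 12 libraries left out in turn, and each tested member kept its call under these settings. The interaction of MMP9 and PGLYRP1 was not called under any of them, and that of MMP8 and OLFM4 could not be estimated, so its count says nothing about stability. Requiring 10 counts or more in each library left no member tested and gave no value. Library size alone moved the median of all tested genes (log2, CDK4/6i+ATRA against non-treated cells) from 0.018 to -0.25, and PGLYRP1 in the combination against ATRA from -0.30 to -0.61 (edgeR adjusted p = 0.135). Leaving out 1 library moved MMP9 in ATRA against non-treated cells between -0.07 and 1.05 and in CDK4/6i between 1.53 and 2.64, and non-treated replicate 3 gave the upper values. Correlations of deviations between libraries with the same replicate number ran from -0.152 to 0.0912 (18 pairs), and with different numbers from -0.130 to 0.145 (36 pairs). No pairing by number was seen, which does not show that such libraries were prepared apart. With the replicate block the members called were again 3, 1, 4, 4 and 3, and MMP9 in the combination was 3.25 (edgeR adjusted p = 1.8e-08). Depth limits the 5 members at the floor and CAMP, for which changes among a few counts could not be detected, and counts of 13 to 119 for the others, where they were high, give wide intervals.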

Other observations

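CRISP1 and CRISP2, which lie within 100000 bases of CRISP3, were listed with 0 counts in all libraries. MED23, whose gene lies across the span of ARG1 on the opposite strand without sharing exon bases, held 491 to 770 counts in every library while ARG1 held at most 3.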
